A study of Mus musculus with 23 samples.

Results

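The libraries compared here are 4 ATAC-seq libraries of mouse Kupffer cells, 2 titled Smad4 knockout (here KO_366 and KO_382, by the number in the title) and 2 titled control (Control_381 and Control_383), out of 23 libraries in the series. They were chosen by their titles. The strain labels say the opposite of the titles. Both libraries titled knockout are labelled Smad4 flox/flox, and both titled control are labelled Smad4 flox/flox Clec4f-cre +/-. Directions are given by the titles, and all of them would be the reverse under the strain labels. All 4 libraries thus come from mice with floxed Smad4 that had no treatment, and the file headers name all 4 as male, C57B6J and KcClecNeg. Clec4f-cre is active in Kupffer cells, which are macrophages that live in the liver, so a deletion it causes is limited to cells that express Clec4f. In the ATAC assay a transposase inserts adapters where DNA is accessible, and a peak of tags marks open chromatin. Nothing in the labels says that the libraries of a group came from separate mice, so the p-values measure the spread between these libraries, which may be technical.

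SMAD4 is the shared partner of the receptor-regulated SMADs. Ligands of the TGF-β family bind pairs of type I and type II receptors, which phosphorylate SMAD2 and SMAD3 (TGF-β and activins) or SMAD1 and SMAD5 (BMPs), and these enter the nucleus with SMAD4. The genes of the ID proteins, which bind and block basic helix-loop-helix factors, are textbook targets of BMP signalling, and Smad6 and Smad7 encode inhibitors that feed back on the pathway. Kupffer cells are known for a set of identity genes that includes the lectin gene Clec4f, the phosphatidylserine receptor gene Timd4, the scavenger receptor gene Marco, Id1, Id3 and Nr1h3, which encodes the oxysterol receptor LXRα.

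Merging the 4 peak lists gave 81093 regions, and their median width was 232 bp. Of these, 39925 were called in all 4 libraries, 1054 (1.30%) in both libraries titled knockout and in neither control, and 5633 (6.95%) in both titled control and in neither knockout. At the regions called in all 4, signal is the normalised tag count, the tags in a peak per 10 M tags of the library. Fold changes are differences of log2(tag count + 1), knockout minus control, after the median of each library was subtracted. Signal was higher in knockout-titled cells at 632 regions (1.58%) and lower at 599 (1.50%), together 3.08%, by the moderated test of limma at an adjusted p of 0.05. The median change was 0.98 on the log2 scale among regions called higher and -1.03 among those called lower.

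Sequences of 8 gene starts show where some of these changes lay. They are the 250 bases upstream of the start in RefSeq (GRCm38.p6, the assembly that mm10 names), and capitals mark AGAC or its reverse complement GTCT, the short element that the SMAD DNA-binding domain reads. They were picked after the values were known, as starts with a changed region next to them, and Id3 as a target gene whose start did not pass. The windows are chr6:83656117-83656366 on the minus strand for Clec4f, chr11:46810549-46810798 on the plus strand for Timd4, chr8:76902080-76902329 on the plus strand for Nr3c2 and chr3:82357822-82358071 on the plus strand for Map9. Those of the risen starts are chr9:120068297-120068546 on the minus strand for Cx3cr1, chr16:92697330-92697579 on the minus strand for Runx1 and chr7:58657952-58658201 on the plus strand for Atp10a. The window of Id3 is chr4:136143572-136143821 on the plus strand.
Clec4f: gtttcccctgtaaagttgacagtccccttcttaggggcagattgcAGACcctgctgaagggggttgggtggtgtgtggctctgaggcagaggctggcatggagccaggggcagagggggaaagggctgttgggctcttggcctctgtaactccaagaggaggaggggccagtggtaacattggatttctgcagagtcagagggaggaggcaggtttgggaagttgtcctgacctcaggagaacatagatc
Timd4: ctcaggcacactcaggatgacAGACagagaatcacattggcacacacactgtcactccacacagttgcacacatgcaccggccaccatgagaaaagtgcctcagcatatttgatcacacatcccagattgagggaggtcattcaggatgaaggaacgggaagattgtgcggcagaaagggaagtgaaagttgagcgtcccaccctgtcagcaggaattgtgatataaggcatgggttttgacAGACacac
Nr3c2: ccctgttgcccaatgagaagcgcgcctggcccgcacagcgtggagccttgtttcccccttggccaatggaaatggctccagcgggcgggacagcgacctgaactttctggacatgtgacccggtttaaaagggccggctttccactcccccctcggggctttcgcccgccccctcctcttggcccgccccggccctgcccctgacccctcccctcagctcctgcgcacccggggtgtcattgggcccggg
Map9: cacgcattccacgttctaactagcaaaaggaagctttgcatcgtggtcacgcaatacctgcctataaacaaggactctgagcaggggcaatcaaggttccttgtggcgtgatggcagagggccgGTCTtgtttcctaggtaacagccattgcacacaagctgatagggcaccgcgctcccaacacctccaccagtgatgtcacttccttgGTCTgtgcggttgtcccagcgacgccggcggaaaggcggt
Cx3cr1: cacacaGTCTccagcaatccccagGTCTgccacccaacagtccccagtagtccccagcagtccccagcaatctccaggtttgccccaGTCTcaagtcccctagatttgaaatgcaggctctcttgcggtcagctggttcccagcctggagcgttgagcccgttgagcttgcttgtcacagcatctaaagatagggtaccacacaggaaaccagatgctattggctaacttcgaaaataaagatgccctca
Runx1: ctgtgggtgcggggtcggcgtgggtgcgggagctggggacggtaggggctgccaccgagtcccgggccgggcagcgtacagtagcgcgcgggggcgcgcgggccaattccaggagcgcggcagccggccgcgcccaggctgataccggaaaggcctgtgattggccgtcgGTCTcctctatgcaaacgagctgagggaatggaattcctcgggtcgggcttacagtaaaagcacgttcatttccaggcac
Atp10a: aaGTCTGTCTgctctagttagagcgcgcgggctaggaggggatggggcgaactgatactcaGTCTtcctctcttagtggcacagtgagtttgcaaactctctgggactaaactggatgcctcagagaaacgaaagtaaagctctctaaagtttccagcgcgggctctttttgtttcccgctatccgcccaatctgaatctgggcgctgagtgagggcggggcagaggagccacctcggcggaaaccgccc
Id3: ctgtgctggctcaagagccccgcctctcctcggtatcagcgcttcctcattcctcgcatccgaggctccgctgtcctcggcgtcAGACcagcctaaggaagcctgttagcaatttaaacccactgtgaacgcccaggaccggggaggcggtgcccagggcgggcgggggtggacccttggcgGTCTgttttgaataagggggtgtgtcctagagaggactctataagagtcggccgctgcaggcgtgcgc

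The peak over the Clec4f start was called in the control libraries alone, with 30.9 and 24.6 tags. At the Timd4 start the knockout libraries held 14.5 and 27.3 and the control libraries 41.2 and 53.0 tags. At the start of Nr3c2, the gene of the mineralocorticoid receptor, knockout libraries held 23.4 and 37.8 and control libraries 128.4 and 158.0 tags. Both knockout libraries lay below both control libraries at each of these starts. Map9, which encodes a microtubule-associated protein, had 12.3 and 14.3 tags in knockout and 53.9 and 74.9 in control libraries at its start. The Nr3c2 start fell by 1.89 (SE 0.17, limma adjusted p = 2.8e-14), the Map9 start by 1.84 (SE 0.24, limma adjusted p = 2.02e-08) and the Timd4 start by 0.85 (SE 0.24, limma adjusted p = 0.0263). The Timd4 call did not hold without centring (adjusted p = 0.0667) or after quantile normalisation (adjusted p = 0.0689), while the other starts passed under both. It was also lost without KO_366, Control_381 or Control_383 (adjusted p = 0.356, 0.183 and 0.171). The start of Cx3cr1, the fractalkine receptor gene, had 18.4 and 23.6 tags in knockout and 9.08 and 7.65 in control libraries. At a start of Runx1, a core transcription factor of blood cells, knockout libraries held 54.1 and 59.5 and control libraries 26.0 and 50.3 tags. At the start of the phospholipid flippase gene Atp10a they held 28.5 and 29.2 in knockout against 11.5 and 8.75 in control libraries. These 3 starts rose by 1.56, 0.97 and 1.77 (limma adjusted p = 3.8e-04, 0.00107 and 1.19e-05), and that of Atp10a passed without centring as well (adjusted p = 0.0167), those of Cx3cr1 and Runx1 not (adjusted p = 0.0506 and 0.482). Without Control_381 the Runx1 start did not pass either (adjusted p = 0.15), while the other risen starts passed whichever library was left out. The Id3 start had 122.2 and 143.9 tags in knockout and 129.6 and 164.0 in control libraries, which overlap (log2 0.20, limma adjusted p = 0.511). AGAC in either direction occurs in 82.9% of 32619 RefSeq windows of this length, and 7 of the 8 windows hold it, all but that of Nr3c2. The palindrome GTCTAGAC (in 0.169% of windows), the GC-rich element GGCGCC (9.65%), the PU.1 core GAGGAAGT (2.46%) and the AP-1 element TGANTCA (6.78%) were searched on both strands and were in none of the 8.

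The depth behind these values was 17.9 and 16.1 M tags in knockout and 16.5 and 18.3 M in control libraries. Fewer peaks were called in knockout libraries, 49438 and 57403, than in control libraries, 60727 and 67555, and peaks held 15.4% and 19.6% of tags in knockout against 19.5% and 25.2% in control libraries. With 2 libraries a group the exact permutation test (two-sided) cannot go below 0.333, which is its p for the number of peaks. The median tag count of shared regions was 22.3 and 28.5 in knockout and 28.5 and 36.1 in control libraries, so KO_366 was lowest and Control_383 highest in peaks, share of tags and median, and the shift of the whole library between groups is -0.34 on the log2 scale. Whether this shift is technical or a general loss of accessibility cannot be told apart here, and in bulk samples neither can fewer open cells and less opening per cell. Correlations of log2 tag counts over the shared regions, as a description, were 0.95 within each group and 0.92 to 0.93 between groups.

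The split between directions depends on that shift. Without centring 27 regions rose and 493 fell, and after quantile normalisation 256 rose and 412 fell. Of the centred calls, 27 of 632 higher and 438 of 599 lower regions were also called without centring, and no called region changed direction. Counted over centring, no centring, quantile normalisation and leaving out each library in turn, 26 higher and 147 lower regions were called in all 7 settings. The fit without the mean-variance trend of limma is not among the 7. It called 97 higher and 138 lower regions, so some of the 147 did not pass it. Which of the named calls passed in that fit is not given here. With 1 library left out, 256 regions rose and 390 fell without KO_366, and 446 and 523 without KO_382. Without Control_381 there were 342 higher and 233 lower regions, and without Control_383 there were 374 and 330. Group-only counts depend on the lengths of the lists. With every list cut to its 49400 strongest peaks by findPeaks score, 2209 regions were called in knockout libraries alone and 2514 in control libraries alone. Lists of equal length draw these counts together by construction, and the source of the excess of control-only regions was not tested. With 1 library left out, knockout-only regions numbered 4895 without KO_366, 2993 without KO_382, 1929 without Control_381 and 3090 without Control_383, and control-only regions 7519, 11437, 14196 and 10312 in the same order. Leaving out a library loosens the rule for a group-only region, so the rise in these counts is built in.

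**Figure D1:**
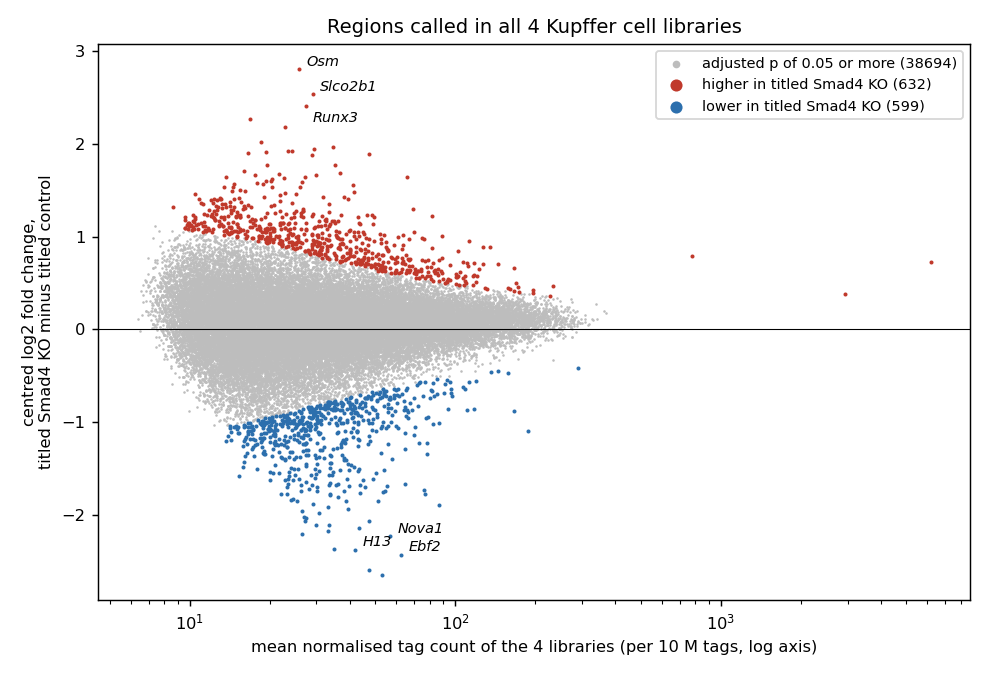
Centred log2 fold change of each of 39925 shared regions, titled Smad4 knockout minus titled control, against the mean normalised tag count of the 4 libraries per 10 M tags on a log axis. Red points are the 632 regions called higher, blue points the 599 called lower, and grey points the rest, and gene names mark the largest changes with a gene within 50 kb.

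Smad4 itself had 2 shared regions, neither of which passed. The stronger, chr18:73703786-73704023, held 55.8 and 54.6 tags in knockout and 55.1 and 75.4 in control libraries (log2 0.12, limma adjusted p = 0.835). The other, chr18:73623170-73623377, held 16.7 and 24.8 in knockout and 23.6 and 37.7 in control libraries (log2 -0.19, limma adjusted p = 0.798). The groups overlap at both. A peak list does not show whether a floxed exon is present, so these values check neither the titles nor the strain labels.

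Among the ID genes, regions of Id3 and Id1 were lower in knockout-titled cells and none of Id2. Of 8 shared Id3 regions 3 fell, all centred 18099 to 20555 bp from the start. At chr4:136125551-136125895 knockout libraries held 15.6 and 14.3 and control libraries 36.9 and 47.0 tags (log2 -1.08, SE 0.26, limma adjusted p = 0.00508). At the neighbouring regions, chr4:136123158-136123377 and chr4:136123462-136123669, KO_366 held 16.7 and 14.5 and KO_382 held 47.8 and 37.2 tags. The control libraries held 64.8 and 72.7 at the first and 58.7 and 61.8 at the second. Both knockout libraries were below both control libraries at all 3, with KO_366 well below KO_382 at the last pair. Their calls passed without centring too (adjusted p = 0.0179 to 0.0284). The pair did not pass without KO_366 (adjusted p = 0.603 and 0.368) or Control_381 (0.107 and 0.131), and the region at chr4:136125551-136125895 not without KO_382, Control_381 or Control_383 (adjusted p = 0.0748 to 0.0916). Of 5 Id1 regions 1 fell, 892 bp from the gene at chr2:152735095-152735359, with 53.0 and 49.6 tags in knockout and 101.7 and 115.9 in control libraries (log2 -0.73, SE 0.17, limma adjusted p = 0.00305, and 0.0601 without centring). Without KO_382 or Control_381 that region did not pass (adjusted p = 0.136 and 0.104). A second Id1 region was called in control libraries alone. The 5 shared regions of Id2 had log2 changes of -0.34 to 0.15 and a lowest limma adjusted p of 0.417. None of 9 shared regions of Smad6 and 4 of Smad7 passed, with log2 changes of -0.51 to 0.52 and -0.05 to 0.38.

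Among ligands and receptors of the TGF-β family 4 of 87 shared regions rose (4.60%, against 1.58% of all shared regions) and 3 fell (3.45%, against 1.50%), and most of these calls rest on the centring or on single libraries. The rises lay at Tgfb1 (2 of 4 regions), at Nrros, which tethers latent TGF-β1 on myeloid cells, and at Itgav, an integrin subunit that helps to release it. A region inside Nrros held 36.3 and 32.9 tags in knockout against 18.8 and 21.9 in control libraries (log2 1.08, SE 0.25, limma adjusted p = 0.00444). The region called at Itgav held 15.1 and 18 tags in knockout and 10.9 and 7.65 in control libraries (log2 1.12, limma adjusted p = 0.0281). At the stronger Tgfb1 region the tag counts overlap before centring, 73.7 and 94.9 in knockout and 61.2 and 82.0 in control libraries, and the call rests on the centring (log2 0.57, limma adjusted p = 0.0284, and 0.795 without it). Without centring none of the 4 rises passed. The Nrros call was lost without KO_366 (adjusted p = 0.23), that at Itgav without KO_366, KO_382 or Control_383 (adjusted p = 0.0999 to 0.41), and both at Tgfb1 whichever of the 4 libraries was left out (adjusted p = 0.0658 to 0.267). The falls lay at Tgfb2 (2 of 5) and at the type I BMP receptor gene Bmpr1a. Within Tgfb2 knockout libraries held 7.26 and 7.44 and control libraries 24.8 and 26.2 tags (log2 -1.33, SE 0.31, limma adjusted p = 0.00337). The region 245 bp from the Bmpr1a start held 12.8 and 12.4 tags in knockout and 32.1 and 33.9 in control libraries (log2 -0.99, SE 0.28, limma adjusted p = 0.0265). Both knockout libraries were below both controls there. These calls at Tgfb2 and Bmpr1a did not pass without Control_381 (adjusted p = 0.1 and 0.321), the one at Bmpr1a not without KO_382 or Control_383 either (adjusted p = 0.194 and 0.0831). The weaker Tgfb2 region was lost without centring (adjusted p = 0.109) and without KO_366, Control_381 or Control_383 (adjusted p = 0.121 to 0.559). The type II receptor gene Tgfbr2 had 5 of 26 merged regions called in control libraries alone, with 6.01 to 15.3 tags. Over the whole list that share was 6.32%, near the 6.95% of all merged regions.

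Among SMAD transducers and their cofactors 3 of 78 shared regions rose (3.85%, against 1.58% of all) and none fell (against 1.50%). A region inside Smad3, the effector of TGF-β, held 85.9 and 107.9 tags in knockout against 58.1 and 74.9 in control libraries (log2 0.87, SE 0.16, limma adjusted p = 8.63e-05). Pmepa1 and Ski, which encode brakes on SMAD signalling, had 1 risen region each (log2 0.68 and 0.97, limma adjusted p = 0.00478 and 0.0406). None of the 3 passed without centring (adjusted p = 0.541 to 0.719). The Smad3 call held whichever library was left out, Pmepa1 was lost without KO_366 or Control_381 (adjusted p = 0.125 and 0.0743), and Ski whichever of the 4 was left out (adjusted p = 0.058 to 0.359). Ldlrad4, a relative of Pmepa1 in structure and in its action on SMADs, had 3 risen regions, of which 2 held whichever library was left out and none without centring. The strongest of these held 43.5 and 72.6 tags in knockout and 25.4 and 24.6 in control libraries (log2 1.47, SE 0.22, limma adjusted p = 8.38e-07, and 0.0694 without centring).

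Genes that TGF-β or BMP is known to act on had 7 of 122 shared regions higher (5.74%, against 1.58% of all) and 8 lower (6.56%, against 1.50%). The largest fall was at Ccn1, which encodes a secreted matrix protein. Both of its shared regions fell, that at chr3:145653294-145653571 to 11.7 and 13.6 tags in knockout against 51.5 and 80.4 in control libraries (log2 -1.93, SE 0.24, limma adjusted p = 6.5e-09). Another 3 Ccn1 regions had peaks in control libraries alone. A region also fell at the early TGF-β gene Klf10. The rises were at Cx3cr1 (3 of 7 regions), the cell cycle inhibitor gene Cdkn1a, Tgfbi, Ski and Pmepa1. The region called at Cdkn1a held 34.0 and 45.3 tags in knockout and 20.6 and 24.6 in control libraries (log2 1.11, SE 0.24, limma adjusted p = 0.00138). No rise of this list passed without centring, and 5 of the falls did. With 1 library left out the list had 3 or 4 higher regions, and 5 lower without KO_366, 7 without KO_382, 2 without Control_381 and 6 without Control_383. The calls at Ccn1 and Cdkn1a held throughout. Klf10 was lost without centring (adjusted p = 0.058) and without KO_366, Control_381 or Control_383 (adjusted p = 0.146 to 0.402) and Tgfbi without KO_382, Control_381 or Control_383 (adjusted p = 0.064 to 0.175). Of the Cx3cr1 regions the one at the start held, another was lost without KO_366 or Control_383 (adjusted p = 0.0996 and 0.334), and the last whichever of the 4 was left out (adjusted p = 0.0966 to 0.244).

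Kupffer identity genes had 13 of 245 shared regions lower (5.31%, against 1.50% of all shared regions) and 3 higher (1.22%, against 1.58%). All 3 higher regions were at Runx3, which is also in the list of lineage factors. The list's median change was 0.03, and that of all shared regions 0.07, so most of its regions did not move with these. The lower regions belonged to 10 genes. The 3 of Id3 and the 1 of Id1 are also counted among the TGF-β and BMP targets, and those of Id3 among the lineage factors. Clec4f had 1 shared region, centred 24112 bp from its start, with 24.0 and 31.6 tags in knockout and 75.7 and 91.8 in control libraries (log2 -1.23, SE 0.20, limma adjusted p = 4.29e-06). A further 4 Clec4f regions, the start among them, had peaks in both control libraries and in neither knockout, and no peak of a knockout library lay within the gene or 1 kb of it. The labels do not say how the Clec4f-cre allele was made, and whether it affects tags at this locus was not tested. Abca1, the cholesterol exporter gene, had 2 of 17 shared regions lower and 4 of 26 merged regions called in control libraries alone. The stronger fall was to 36.3 and 42.2 tags in knockout against 107.8 and 127.4 in control libraries (log2 -1.22, SE 0.17, limma adjusted p = 1.22e-07). The chemokine gene Cxcl13 had its single shared region at 10.6 and 14.3 tags in knockout and 39.4 and 54.7 in control libraries (log2 -1.50, SE 0.26, limma adjusted p = 2.96e-05). Marco had 1 of 7 shared regions lower (20.1 and 30.4 tags in knockout, 51.5 and 67.8 in control libraries). Of its 19 merged regions 4 were called in control libraries alone. Over the whole identity list that share was 8.13%, against 6.95% of all merged regions. These regions of Clec4f, Abca1, Cxcl13 and Marco also passed without centring (adjusted p = 3.73e-04 for Cxcl13 to 0.0398 for Marco). Those of Clec4f, Abca1 and Cxcl13 held with any 1 library left out, and Marco was lost without KO_366, Control_381 or Control_383 (adjusted p = 0.0769 to 0.0997), as was the weaker Abca1 region (adjusted p = 0.152 to 0.397, and 0.111 without centring). The list had 5 lower regions without KO_366, 11 without KO_382, 3 without Control_381 and 7 without Control_383. Not every identity gene moved: Nr1h3 (3 shared regions), Cd5l (5), Vsig4 (2), Cd163 (3), Spic (2), Csf1r (4) and Adgre1 (3) had none that passed.

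**Figure D2:**
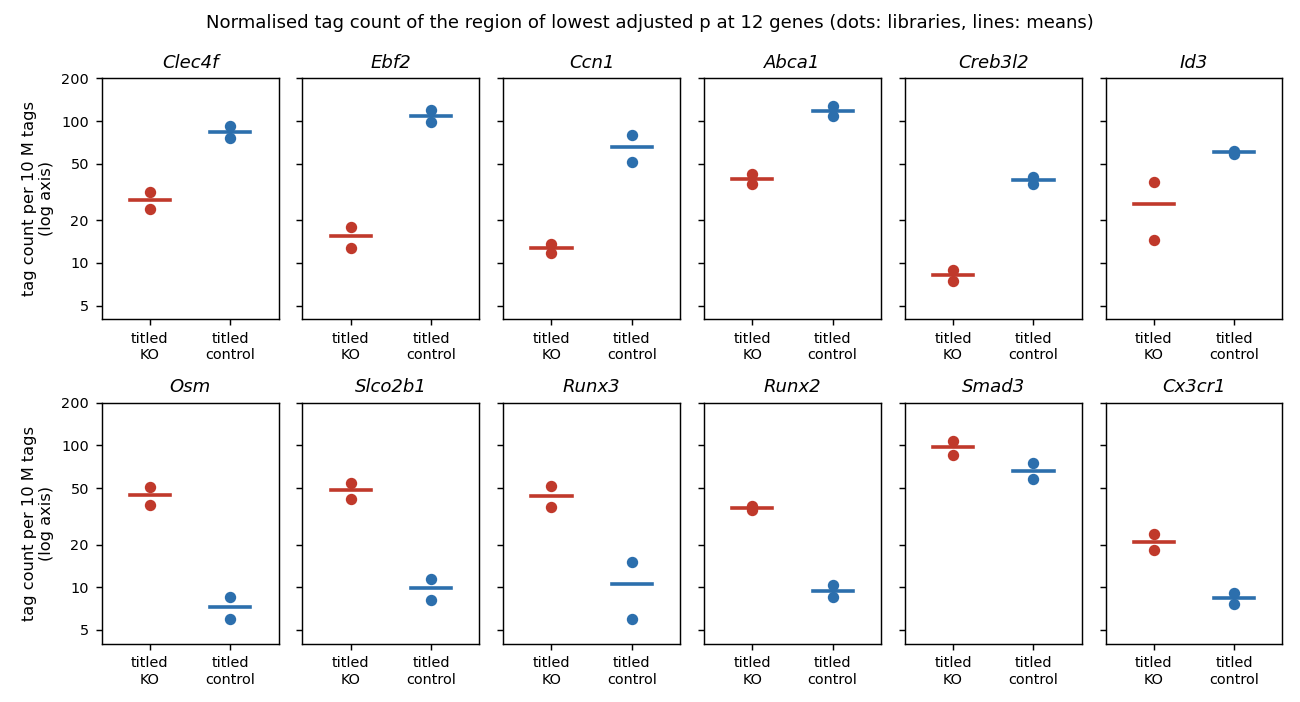
Normalised tag count per 10 M tags, on a log axis, at the region of lowest adjusted p of each of 12 genes in the libraries titled Smad4 knockout (red, left) and titled control (blue, right), with dots for libraries and lines for means of 2. The 6 genes of the top row were lower in both knockout-titled libraries and the 6 of the bottom row higher, with no overlap between groups.

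Genes that LXRα acts on had 6 of 155 shared regions lower (3.87%, against 1.50% of all) and 3 higher (1.94%, near the 1.58% of all). Besides Abca1 the falls were at Scd1 (3 of 11 regions), which encodes a fatty acid desaturase, and at the apoptotic cell receptor gene Mertk. At chr19:44422034-44422237 by Scd1 knockout libraries held 28.5 and 26.7 and control libraries 62.4 and 77.6 tags (log2 -0.97, SE 0.21, limma adjusted p = 0.00108). The rises were at Abcg1, Mylip and Pparg. The Abcg1 region had 84.8 and 89.3 tags in knockout and 53.3 and 80.9 in control libraries (log2 0.74, SE 0.17, limma adjusted p = 0.00248, and 0.673 without centring). The cholesterol exporter genes Abca1 and Abcg1 thus had called regions in opposite directions. Notch pathway genes had 1 region of 114 higher and 1 lower (0.877% each, below the 1.58% and 1.50% of all), both at the coactivator gene Maml3. Of the 36 merged regions of Maml3, 7 were called in control libraries alone. Over the Notch list that share was 10.2%, against 6.95% of all merged regions. Neither Maml3 call passed without centring (adjusted p = 0.663 for the rise and 0.0873 for the fall), nor did Mylip and Pparg (0.545 and 0.315). With 1 library left out, the LXR list had 2 lower regions without KO_366, 6 without KO_382, and 3 without Control_381 or Control_383. The Scd1 region given held throughout, and the other 2 were lost without KO_366 (adjusted p = 0.115 and 0.227), 1 also without Control_381 (0.222) and 1 without Control_383 (0.109). Mertk was lost without KO_366, Control_381 or Control_383 (adjusted p = 0.112 to 0.22), Abcg1 and Pparg without KO_366 or Control_381 (adjusted p = 0.0648 to 0.12), and Mylip whichever of the 4 was left out (adjusted p = 0.0517 to 0.325). The Maml3 rise was lost without Control_383 (adjusted p = 0.133) and its fall without KO_366, Control_381 or Control_383 (adjusted p = 0.0811 to 0.199).

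Lineage transcription factors of macrophages had 15 of 325 shared regions higher (4.62%, against 1.58% of all shared regions) and 4 lower (1.23%, against 1.50%). The rises belonged to 11 genes, and the RUNX family, which sets up blood cell fates, had the largest. A region 14936 bp from Runx3 held 36.8 and 51.5 tags in knockout and 15.1 and 6.01 in control libraries (log2 2.40, SE 0.30, limma adjusted p = 2.57e-09). A region inside Runx2 held 35.2 and 37.2 tags in knockout and 8.48 and 10.4 in control libraries (log2 2.17, SE 0.28, limma adjusted p = 1.95e-08). Both were among the 26 higher regions called in all 7 settings. Nr4a1, an early response nuclear receptor gene, had a region with 116.1 and 149.5 tags in knockout and 90.8 and 113.2 in control libraries (log2 0.71, limma adjusted p = 2.96e-04, and 0.686 without centring). Cebpb, Irf8, Klf4, Bach1 and Pparg had 1 risen region each and Bach2 and Bhlhe41 had 2, and of the 15 rises the ones at Runx2 and Runx3 alone passed without centring. The lower regions were those of Id3 and 1 at Rela, a subunit of NF-κB. The list had 4 higher regions without KO_366, 10 without KO_382, 8 without Control_381 and 11 without Control_383. The calls at Nr4a1, Runx2 and the Runx3 region given held throughout. Each call at Cebpb, Irf8, Klf4, Bach1, Bach2 and Bhlhe41 was lost without 1 or more of the libraries, KO_366 among them for all (adjusted p = 0.0864 to 0.505 without KO_366). Leaving out KO_366 also ended the call at Rela (adjusted p = 0.115), as did leaving out Control_381 (adjusted p = 0.167) or the centring (adjusted p = 0.0884). The weaker Runx3 regions were lost without KO_366 (adjusted p = 0.238 and 0.0771) or KO_382 (0.148 and 0.0858), 1 also without Control_383 (0.544) and 1 without Control_381 (0.1).

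**Figure D3:**
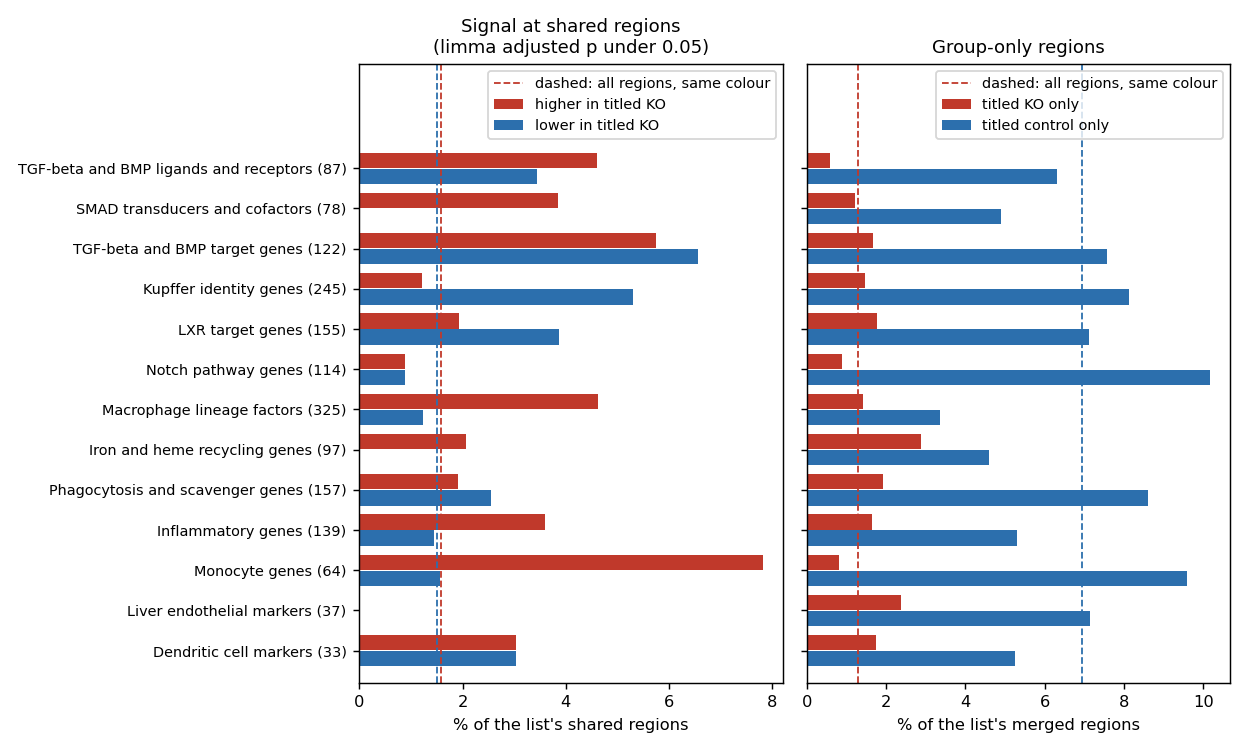
Left, percent of the shared regions of each gene list (number in brackets) that were higher (red) or lower (blue) in titled Smad4 knockout. Right, percent of its merged regions called in titled knockout alone (red) or titled control alone (blue). Dashed lines give the same percent over all regions, and lists with under 30 shared regions are left out.

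Inflammatory genes had 5 of 139 shared regions higher (3.60%, against 1.58% of all) and 2 lower (1.44%, near the 1.50% of all). The largest rise of all called regions was 3735 bp from Osm, the gene of the cytokine oncostatin M. It held 38.0 and 50.9 tags in knockout and 8.48 and 6.01 in control libraries (log2 2.80, SE 0.29, limma adjusted p = 5.38e-12), and it was called in all 7 settings. A second Osm region, inside the gene, had peaks of 15.6 and 11.8 tags in knockout libraries alone. Nfkbiz, which encodes a nuclear NF-κB cofactor, had 2 risen regions and Socs3, a brake on cytokine receptors, had 1 (log2 1.03, limma adjusted p = 4.86e-04, and 0.427 without centring). Neither Nfkbiz region passed without centring (adjusted p = 0.0712 and 0.495). Socs3 was lost without KO_382 (adjusted p = 0.0736), the Nfkbiz regions without Control_383 (adjusted p = 0.0553 and 0.173), and the first of them also without KO_382 (adjusted p = 0.06). Without Control_383 the list had 2 higher regions. A region 27130 bp from Il1b fell to 13.4 and 33.5 tags in knockout against 47.2 and 62.3 in control libraries (log2 -0.97, SE 0.24, limma adjusted p = 0.00605), a call lost without KO_366, Control_381 or Control_383 (adjusted p = 0.413, 0.0597 and 0.0811). Monocyte genes had 5 of 64 regions higher (7.81%, against 1.58% of all), at Cx3cr1, Nr4a1 and Ly6c2, and 1 lower at Ifitm6 (1.56%, near the 1.50% of all). The Ly6c2 region lay more than 1 kb from the gene. It held 170.2 and 186.7 tags in knockout and 179.3 and 139.9 in control libraries, which overlap before centring (log2 0.51, limma adjusted p = 0.0134, and 0.842 without centring). No rise of the monocyte list passed without centring. The monocyte list had 2 higher regions without KO_366 and 2 without Control_383, where Ly6c2 was lost (adjusted p = 0.188 and 0.733). The fall at Ifitm6 did not pass without centring (adjusted p = 0.085) and was lost whichever library was left out (adjusted p = 0.0865 to 0.406). Scavenger and phagocytosis genes had 3 of 157 higher and 4 lower (1.91% and 2.55%, near the 1.58% and 1.50% of all), with the largest fall inside the scavenger receptor gene Colec12, to 5.58 and 9.30 tags in knockout against 27.9 and 29.0 in control libraries (log2 -1.50, SE 0.30, limma adjusted p = 4.85e-04). Iron and heme recycling genes had 2 of 97 higher (2.06%, near the 1.58% of all), by the ferritin gene Fth1 and by Bach1, and none lower, and neither rise passed without centring (adjusted p = 0.526 and 0.765). Fth1 was lost without KO_366 or Control_381 (adjusted p = 0.0892 and 0.0589).

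Most of the largest falls lay outside these lists. The leading 2 had no gene within 50 kb, chr8:8452163-8452567 with 8.93 and 13.6 tags in knockout and 82.4 and 106.6 in control libraries (log2 -2.64) and chr1:77761394-77761628 with 11.2 and 9.30 against 78.7 and 89.7 (log2 -2.59). Within Ebf2, a transcription factor gene, knockout libraries held 12.8 and 18 and control libraries 98.7 and 120.3 tags at chr14:67275405-67275702 (log2 -2.43, SE 0.21, limma adjusted p = 1.58e-15). Another 2 Ebf2 regions fell, 1 of them not without KO_366 or Control_381 (adjusted p = 0.0717 and 0.149) and 1 not without Control_383 (adjusted p = 0.11), and 1 was called in control libraries alone. A region inside H13, by the start of the retrogene Mcts2, held 7.26 and 14.3 tags in knockout and 61.8 and 84.7 in control libraries (log2 -2.37, SE 0.25, limma adjusted p = 8.15e-12). Both groups stood far apart at all of these. Among regions with a gene within 50 kb, next came Nova1, a splicing factor gene, Klhl29, the integrin ligand gene Edil3, the junction scaffold gene Magi1, the calcium channel gene Ryr2, Tcim, Ccn1 and the homeobox gene Zfhx3, with log2 changes of -2.23 to -1.91. All 10 of the largest falls with a gene within 50 kb were among the 147 lower regions called in all 7 settings.

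Some genes held several lowered regions. Creb3l2, a membrane-bound transcription factor of the secretory pathway, had 5, of which the one with the largest change, 21737 bp from the gene, held 8.93 and 7.44 tags in knockout and 36.3 and 40.5 in control libraries (log2 -1.77, SE 0.29, limma adjusted p = 8.03e-06). Marchf4, Magi1 and Dlgap2 had 4 each, and Ebf2 was among the genes with 3. Calls that held whichever library was left out were 2 of 5 at Creb3l2, 3 of 4 at Marchf4, 1 of 4 at Magi1, 0 of 4 at Dlgap2 and 1 of 3 at Ebf2. Control-only regions were most numerous at the phosphatase gene Ptprm, with 10 of 46 merged regions, and at Klhl29, with 8 of 13. Maml3 (of 36), the sialyltransferase gene St6galnac3 (of 15) and the zinc finger gene Tshz2 (of 31) had 7 each. Regions were counted per gene without regard to its length.

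Among the largest rises after Osm were Slco2b1, an organic anion transporter gene, Runx3, the nuclear pore gene Nup188, Runx2, and Hvcn1, which encodes the proton channel of phagocytes. In Slco2b1 knockout libraries held 54.7 and 42.2 and control libraries 11.5 and 8.20 tags (log2 2.53, SE 0.28, limma adjusted p = 4.99e-11), and a second Slco2b1 region had 39.6 and 52.1 tags in knockout libraries and no peak in controls. The Hvcn1 region held 27.9 and 29.8 tags in knockout and 9.69 and 7.11 in control libraries (log2 2.02, SE 0.30, limma adjusted p = 8.66e-07). Arhgef10, Dync1li2 and the adiponectin receptor gene Adipor2 followed with log2 changes of 1.97 to 1.92. All 10 largest rises were called in all 7 settings. Vps13d and the coactivator gene Zmiz1 had 4 risen regions each, and Runx3, Ldlrad4 and Hvcn1 were among the genes with 3. At Vps13d 3 of the 4 held whichever library was left out, and at Zmiz1 none. Without centring 2 of the Vps13d rises passed and none of those at Zmiz1. At 3 regions the tag count was far above all others, 6174 on average at chr2:98667033-98667235, and all 3 were called higher after centring but not without it (adjusted p = 0.653 to 0.969).

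Group-only regions were weak and often lay beside a peak of the other group. Their median tag count was 10.7 in knockout-only and 10.1 in control-only regions, and that of shared regions 28.9. A peak of the other group lay within 1 kb of 436 of the 1054 knockout-only regions (41.4%) and of 1430 of the 5633 control-only regions (25.4%), and of 38 and 41 of the 50 strongest. Mxd4, Atp5g1 and Isyna1 are named by both lists of the strongest, with adjacent peaks. At Mxd4 the knockout-only peak had 245.0 and 248.7 tags and the control-only peak beside it 214.4 and 304.5. Such pairs place a peak differently and do not show a region open in one group alone. The 10 strongest of each direction with a gene within 50 kb all had such a neighbour, the others being at Med29, Mnt, Cd47, Uba3, Hsp90aa1, Dusp1 and Got1 in knockout and at Sp1, Tnfaip2, Jun, B4galt5, Klf2, Mllt10 and Ascc3 in control libraries.

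Away from any peak of the other group, there were 618 knockout-only and 4203 control-only regions, and their genes are named by a rule added after the data were seen. The strongest knockout-only ones with a gene were at Adgre5, an adhesion receptor gene, with 66.4 and 89.3 tags, Gas2l1 with 50.8 and 74.4, Hivep2 with 54.1 and 66.4, and Acod1, the itaconate enzyme gene, with 53.0 and 66.4. The peaks at Adgre5, Acod1, Kif21b and the inflammasome gene Nlrp1b were present in all 19 other libraries of the series, those of control Kupffer cells included. At Acod1 the 4 other control Kupffer libraries held 153.8 to 254.0 tags, and at Hivep2 all 4 had a peak too, of 73 to 110.5 tags. A region absent from the titled control lists was in these cases well open in other control Kupffer cells. At Gas2l1 and Slco2b1, 1 of the 4 held a peak, of 19.1 and 9.83 tags. The strongest isolated control-only regions were at Pitpnm1 with 62.4 and 65.1 tags, Vps8 with 63.6 and 59.6, Atp1b3 with 61.2 and 55.2, and Snx24 with 37.5 and 72.7. Peaks were also called at Vps8, Atp1b3, Snx24, Marchf11 and Hip1 in all 4 other control Kupffer libraries, and in none of the 4 at the cathepsin gene Ctsd. Among knockout-only regions the genes with most were Nt5c2 and Pcnx with 4 each, and among those with 3 were Nlrp1b, the endocytic receptor gene Lrp1 and the ETS factor gene Elf1.

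Changed regions lay away from gene starts more often than shared regions as a whole. Within 1 kb of a start lay 16.5% of higher and 13% of lower regions, against 30.6% of all shared regions, with chromosome 18 left out for lack of start positions. Over 50 kb from any start lay 15.7% of higher, 28.2% of lower and 15.0% of all shared regions. Of all group-only regions 18.2% in knockout and 9.16% in control libraries lay within 1 kb. Of the isolated ones, chosen for having no peak of the other group nearby, 6.19% and 5.19% did. The share of lower regions with no gene within 50 kb was 17.9%, that of higher regions 8.39% and that of all shared regions 7.13%. The lower regions were thus the more distant of the 2 sets. Across chromosomes the share of shared regions called lower ran from 1.09% on chromosome 17 to 2.19% on chromosome 6, and that called higher from 0.274% on X to 2.44% on chromosome 19. Within 10 Mb of Clec4f, on chromosome 6, 11 of 320 shared regions were lower (3.44%, against 1.50% of all) and 6 higher (1.88%, against 1.58%). Within 10 Mb of Smad4, on chromosome 18, 3 of 329 were lower (0.912%) and 8 higher (2.43%). Whether the Clec4f-cre allele bears on these shares was not tested.

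**Figure D4:**
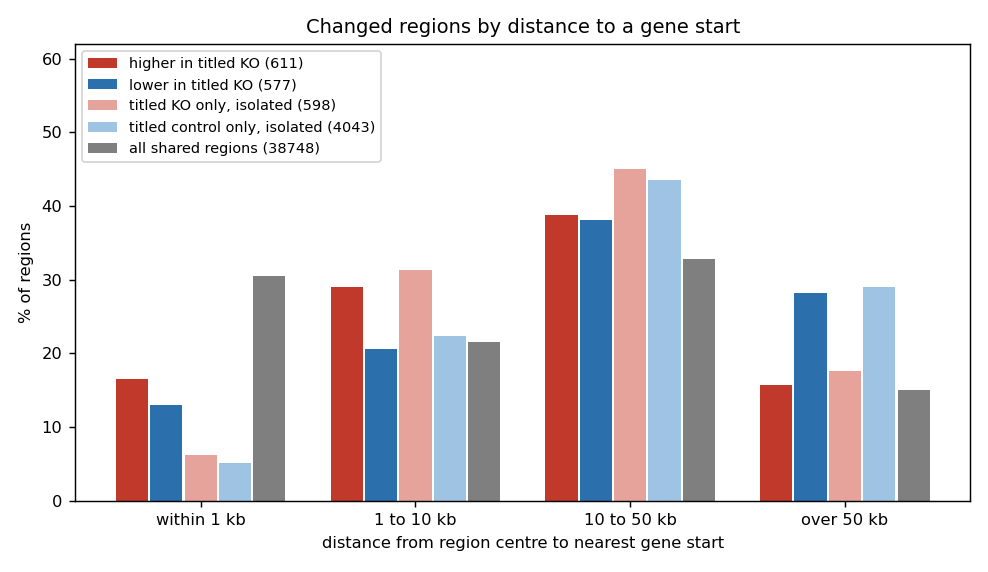
Percent of regions by distance from the region's centre to the nearest gene start, for regions higher and lower in titled Smad4 knockout, isolated regions called in 1 titled group alone, and all shared regions in grey. Changed regions fall short of shared regions within 1 kb of a start (16.5% and 13% against 30.6%), and lower regions exceed them beyond 50 kb (28.2% against 15.0%).

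The 19 libraries that the comparison did not use give the level of the same regions in other cells, as a description with no test, and no genotype was read from it. Regions lower in titled knockout stood at 0.43 to 0.76 relative to the median of shared regions (log2) in the 4 other control Kupffer libraries, 2 from PBS-treated mice and 2 from Nr1h3 floxed mice, and 97.5% to 98.5% of them had a peak there, near the 93.8% to 97.3% of all shared regions. In Nr1h3 knockout Kupffer cells they stood at -0.48 to -0.34 in TIM4+ and at -0.73 to -0.71 in TIM4- libraries. They stood at -0.76 to -0.55 in liver macrophages that repopulate after Kupffer cell loss (24 h and 48 h after DT by the titles). In blood monocytes they stood at -0.83 to -0.66. In marrow-derived macrophages they stood at -0.83 to -0.73 untreated and at -0.87 to -0.71 with DLL4. Each level is the median over those regions with a peak in that library. Of the lower regions 46.2% and 47.4% had a peak in blood monocytes, against 81.4% and 83.3% of all shared regions. The share was 52.9% to 59.4% at 24 h, 74.0% to 79.6% at 48 h and 66.6% to 74.8% in marrow-derived macrophages. Titled knockout cells themselves stood at -0.59 and -0.69 and titled control cells at 0.48 and 0.52. Regions higher in titled knockout were -0.40 to -0.18 in control Kupffer libraries and 0.07 to 0.32 in every other group. At the largest rise, by Osm, blood monocytes held 127.8 and 241.0 tags, the PBS Kupffer libraries had no peak and the Nr1h3 control libraries held 6.36 and 7.26. At the Ebf2 region the PBS libraries held 192.4 and 209.9 and neither blood library had a peak. At the Id3 region chr4:136125551-136125895 the Nr1h3 knockout libraries held 69.6 to 132.4 tags and the Nr1h3 controls 105.3 and 77.9. Of knockout-only regions 32.8% to 40.7% had a peak in the control Kupffer libraries and 70.2% to 75.5% in the 48 h repopulating ones. The same shares were 55.4% to 68.5% and 47.3% to 54.6% for control-only regions, and 93.8% to 97.3% and 95% to 96.2% for shared regions.

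**Figure D5:**
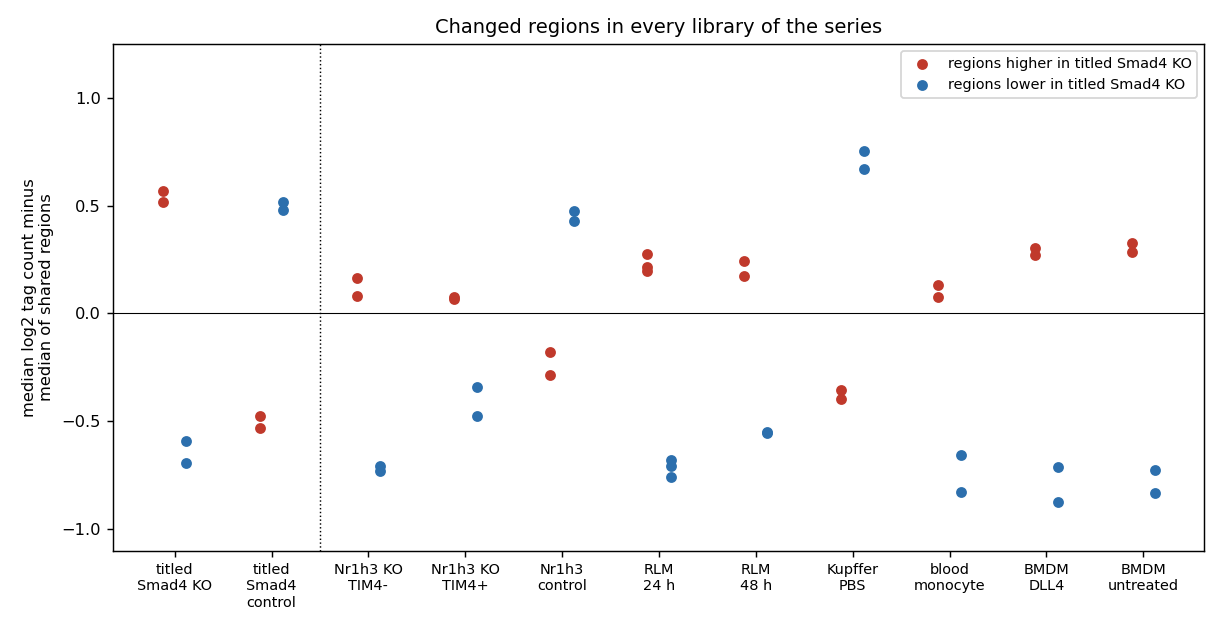
Median log2 tag count of the regions called higher (red) and lower (blue) in titled Smad4 knockout, minus the median of all shared regions, in each of the 23 libraries by group (RLM are repopulating liver macrophages after DT, BMDM marrow-derived macrophages, untreated or with DLL4). Medians are over regions with a peak in that library. The first 2 groups chose the regions. To the right of the dotted line, lower regions stand above 0 in Nr1h3 control and PBS Kupffer libraries and below 0 in the other 7 groups.

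The labelled cell type was checked by peaks at or within 1 kb of marker genes. Of 10 Kupffer markers 7 and 9 had a peak in knockout-titled libraries and all 10 in both controls, with Clec4f lacking in both knockout libraries and Vsig4 and Cd163 in KO_366. The summed tag count over these markers was 631 and 902 in knockout and 1028 and 1477 in control libraries. Monocyte genes had peaks at 15 and 16 of 27 in knockout and 15 and 16 in control libraries (summed 1098 and 1375, against 1378 and 1810), with none at Ly6c2 itself, S100a9 or Chil3 in any library. Hepatocyte markers had peaks at 2 and 3 of 16 in knockout and 5 and 4 in control libraries, and Alb in none. Neutrophil markers had 4 and 4 of 14, against 6 and 5, and Ly6g in none. T and NK cell markers had 6 and 6 of 16, against 6 and 7, and Cd3e in none. B cell markers had 5 and 5 of 11, against 7 and 7. Liver endothelial markers had 8 and 10 of 15, against 10 and 12, stellate cell markers 6 of 16 in every library, and dendritic cell markers 10 and 9 of 12, against 10 and 10. The summed levels of all these lists were lowest in KO_366 and highest in Control_383, as were the library medians. Their part in the changes above was not tested. In the signal test, of the 37 shared regions of endothelial, 19 of neutrophil, 14 of T and NK cell and 6 of hepatocyte markers none passed, while 1 of 13 stellate cell regions (Pdgfra) and 1 of 6 B cell regions (Blk) fell, and dendritic cell markers had 1 of 33 higher (Siglech) and 1 lower (Ccr7). The calls at Pdgfra and Blk were lost whichever library was left out (adjusted p = 0.0522 to 0.306) and that at Ccr7 without KO_366, Control_381 or Control_383 (adjusted p = 0.0635 to 0.405), while Siglech held. Without centring the calls at Siglech (adjusted p = 0.485) and Ccr7 (0.0819) were lost. The Siglech region lay more than 1 kb from the gene, and no library of the comparison had a peak at or within 1 kb of Siglech itself.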

How the data were processed

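Open chromatin was measured by ATAC-seq in 4 Kupffer cell libraries, 2 titled Smad4 knockout and 2 titled control. The submitters' processing notes name Bowtie2, HOMER and the build mm10, and the sources used here give no version of either. The deposited signal is the normalised tag count, which per the file headers HOMER computed in each 200 bp peak and scaled to 10 M tags. The deposited findPeaks score was read and entered no test. Per the file headers peaks were found in each library alone, at a false discovery rate of 0.001, 4-fold over the surrounding 10 kb and with a local Poisson p of 0.0001.

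Peaks on 19 autosomes and X were merged at an overlap of 1 bp, and the 182 of 235123 peaks that lay elsewhere were dropped. The strongest peak of a library in a region gave its value. Regions called in all 4 libraries were tested on log2(tag count + 1), centred on each library's median, with limma 3.58.1 (R 4.3.3, moderated, mean-variance trend, two-sided, Benjamini-Hochberg over 39925 regions). Fold changes of weak regions are understated on this scale. Tag counts under 10, scaled back by the library's total, all came within 0.02 of a whole tag, but the deposited values are normalised and no count model was run on them. The limma test was checked on simulated data with planted changes, a common spread of noise for all regions and no shift between libraries. Such data cannot check the centring or the mean-variance trend. A region's gene is the closest protein-coding gene body, up to 50 kb away (GRCm38.p6, 21631 genes). Distances to gene starts use the RefSeq promoter table, which is not complete.

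The members, gene lists (18, with 389 of 391 genes found, some in several lists) and alternatives were chosen with earlier results of these data known. Named are Smad4, Id1, Id2, Id3, Smad6 and Smad7, the 10 largest called changes and the 10 strongest group-only regions per direction, the 5 genes with most of each, and in each list up to 4 genes of lowest adjusted p and 2 with most group-only regions. Tgfb1, Klf10, Tgfbi, Rela, Bhlhe41, Nr3c2, Map9, Atp10a, Timd4, regions with no gene, and other genes named with a count alone were added after their values were seen. Some items that this rule names are not reported here.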

Additional observations from a re-analysis of the deposited data

How the results depend on the processing

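The 599 lower regions became 493 without centring, 412 after quantile normalisation, 617 with a pseudocount of 5, 529 at a mean tag count of at least 20, 510 with peaks summed and 557 with 10 Kupffer libraries in the fit, and 138 without the mean-variance trend. The 632 higher regions became 27, 256, 655, 315, 445, 350 and 97 in the same order. Leaving out 1 library gave 256 to 446 higher and 233 to 523 lower regions, with the fewest higher without KO_366 and the fewest lower without Control_381. The cause of these differences was not tested. Knockout-only regions numbered 329 at a tag count of at least 20, 618 with no peak of the other group within 1 kb, 2209 with lists cut to 49400 peaks and 1929 to 4895 with 1 library left out. Control-only regions numbered 2923, 4203, 2514 and 7519 to 14196. The rise with 1 library left out is built into the rule, which then asks for fewer libraries. Lists of equal length draw both counts together by construction, so their near balance is no result about the excess of control-only regions. By gene list, without centring and after quantile normalisation, higher regions numbered 0 and 3 for TGF-β and BMP targets, 2 and 7 for lineage factors, 0 and 2 for monocyte genes, and 1 without centring for inflammatory genes. Lower ones numbered 5 without centring for TGF-β and BMP targets and 8 after quantile normalisation for Kupffer identity genes. With genes within 10 kb, lower regions were 3 for the targets and 7 for identity genes. With 1 library left out the targets had 3 to 4 higher and 2 to 7 lower regions, identity genes 3 to 11 lower, LXR targets 2 to 6 lower, lineage factors 4 to 11 higher, inflammatory genes 2 to 6 higher and monocyte genes 2 to 5 higher. By an alternative added after the data were seen, the centred level in other control Kupffer libraries of regions called higher was -0.30, and -1.22 with calls made without centring or -0.44 after quantile normalisation, and that of regions called lower 0.58, 0.30 and 0.78. Requiring an overlap of 100 bp kept both group-only counts within 1.5 times, and merging over 23 libraries kept these and the counts of higher and lower regions so. The numbers of peaks and the share of tags in peaks stayed lower in knockout libraries with any 1 library left out, by differences of -14703 to -6738 peaks and -7.73 to -2.03 percentage points. No called region named in the text turned round under any setting tried. No paired analysis was possible because the titles of the 2 groups share no library numbers. Depth limits the lists to peaks that passed the caller, so a region in no list of a group may be open below that threshold, and 2 libraries a group give few calls at weak regions.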
